A study of Mus musculus with 10 samples.

Results

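Engagement of Toll-like receptor 4 by bacterial lipopolysaccharide (LPS) depends on a small set of accessory proteins, and the genes of 10 of them were followed here in mouse peritoneal macrophages. The genes were the co-receptors Cd14 and Ly96, the adaptors Myd88, Tirap, Ticam1 and Ticam2, and the kinase family Irak1, Irak2, Irak3 and Irak4. They were chosen by name for their place in the pathway, although earlier results of these data were known at that point. Each was matched by its NCBI gene identifier to a row of the deposited count table, so that 10 of 29700 rows were described (circular RNA rows left out). All 10 passed the filter on low counts, with 35 to 13882 estimated counts per library.

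As background, CD14 takes up LPS and hands it to MD-2, the protein encoded by Ly96, which sits on the receptor and carries the ligand. The receptor then recruits adaptors in pairs. TIRAP bridges it to MyD88 at the cell surface, whereas TRAM (Ticam2) bridges it to TRIF (Ticam1) after uptake into endosomes, and TRIF leads to type I interferon. MyD88 assembles with IRAK4, which activates IRAK1 and IRAK2, and the latter sustain the signal toward NF-kB. IRAK-M, encoded by Irak3 and found mainly in monocytes and macrophages, is known as an inhibitory member that limits this relay and is associated with tolerance to repeated LPS.

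The 10 libraries, 5 control and 5 ox-LDL, came from thioglycollate-elicited macrophages of C57BL/6 mice aged 8 weeks. Cells were taken 3 days after the injection, neither group carries a named allele, and RNA was sequenced on the BGISEQ-500 platform. The treatment label of the control cells is untreated, whereas the ox-LDL cells received LPS at 100 ng/ml and then spent 16 h with 100 µg/ml of ox-LDL, the oxidized form of low-density lipoprotein. However, a protocol field shared by all libraries names ox-LDL, and the design text describes LPS priming and ox-LDL without setting the controls apart, so whether the controls were primed with LPS is not settled. With untreated controls, each difference below holds LPS and ox-LDL together, and the agents cannot be told apart, whereas with primed controls it would hold ox-LDL alone. The design text calls the 5 samples of a group biological replicates but does not say whether each came from its own animal, and p-values below measure the spread between these samples.

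Depth was even, with total counts of 20094647 to 20687289 in the control and 19257131 to 20358017 in the ox-LDL group. The macrophage markers Adgre1, Csf1r, Itgam, Cd68, Mertk, Fcgr1 and Lyz2 summed to 23065 to 42749 CPM (counts per 1000000 counts, here scaled by library size alone) in control and 12988 to 28177 CPM in ox-LDL libraries. Against this, 7 neutrophil markers summed to 6.45 to 15.5 CPM and 13.7 to 90.9 CPM, and 7 mesothelial and stromal markers, led by Dcn, to 14.6 to 46.1 CPM and 60.6 to 130.1 CPM, so the stromal sums were higher in all ox-LDL libraries, the neutrophil sums overlapped, and their part in the results was not tested. Markers of B cells, T cells, dendritic cells, and eosinophils and mast cells each summed to at most 8.11 CPM in any library, with Pax5, Cd3d, Cd3e, Cd3g, Cd8a, Flt3 and Kit below 0.5 CPM throughout. Dendritic sums were higher in all ox-LDL libraries (2.27 to 4.00 CPM against 0.77 to 1.52 CPM in control). Eosinophil and mast cell sums were lower in all of them (0.57 to 1.95 CPM against 2.91 to 8.11 CPM), and the part of either was not tested. The deviation of ox-LDL replicate 2 from its group mean had a trend on gene length (Spearman -0.65 across genes), with short genes high and long genes low. Control replicates 1 and 4 shared this trend (-0.57 and -0.46). The other libraries had values of 0.06 to 0.52, which is in part forced, as deviations within a group balance out. In bulk RNA, fewer cells of a type and less RNA per cell cannot be told apart.

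On mm9, the genes with positions printed here lie at chr1:16678537-16699686 (Ly96), chr9:119245052-119250529 (Myd88), chr9:34994370-35007490 (Tirap), chr17:56408742-56416209 (Ticam1), chrX:71259253-71269257 (Irak1), chr6:113588461-113645003 (Irak2), chr10:119578704-119639186 (Irak3) and chr15:94374074-94412246 (Irak4).

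The IRAK genes can be told apart by sequence at one position of the kinase domain. In active kinases a conserved loop holds an aspartate that serves catalysis, and IRAK2 and IRAK-M are known to lack it. The coding bases of this loop, 33 bases or 11 codons, were read from the GENCODE transcripts of build NCBIM37 (mm9), the build of the count table. They are printed because the IRAKs with a like codon had fold changes of the same sign in the results that follow. This match was picked from the results, and a link between the codon and the RNA level was not tested. Capitals mark the codon at the catalytic position.
Irak4: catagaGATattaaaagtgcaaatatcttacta
Irak1: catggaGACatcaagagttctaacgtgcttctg
Irak2: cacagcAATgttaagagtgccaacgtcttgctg
Irak3: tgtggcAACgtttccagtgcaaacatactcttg
The marked codon begins with G in Irak4 (chr15:94389299-94389301, plus strand) and Irak1 (chrX:71266290-71266292, minus strand) and with A in Irak2 (chr6:113626680-113626682, plus strand) and Irak3 (chr10:119602157-119602159, minus strand). It lies in a coding exon, exon 8 of each transcript, and the 8th intron interrupts the loop after base 17 in all 4 genes.

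At an adjusted p below 0.01 (edgeR's quasi-likelihood test, Benjamini-Hochberg adjustment over the 12654 genes tested), 4 of the 10 genes were higher in ox-LDL libraries, namely Cd14, Ticam2, Irak2 and Irak3, and 0 were lower. Over all genes tested, 9.4% were higher and 5.35% were lower at that level. Without adjustment, 5 of the genes were higher and 2 lower at an edgeR p below 0.05, beside 23% and 15.8% of all genes. With DESeq2, 5 passed the adjusted threshold upward and 1 downward, beside 13.9% and 9.83%. When the size of the log2 fold change also had to exceed 2, which 4.78% of genes passed upward and 1.93% downward, Cd14 alone remained. The median log2 fold change of the 10 genes was 0.57, beside 0.10 over all genes tested. Without control replicate 5, ox-LDL replicate 2 and ox-LDL replicate 5, the libraries that stand farthest from their groups, 5 were higher and 0 lower, with Ticam1 added, beside 14.7% and 12.5% of the 13211 genes then tested.

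**Figure D1:**
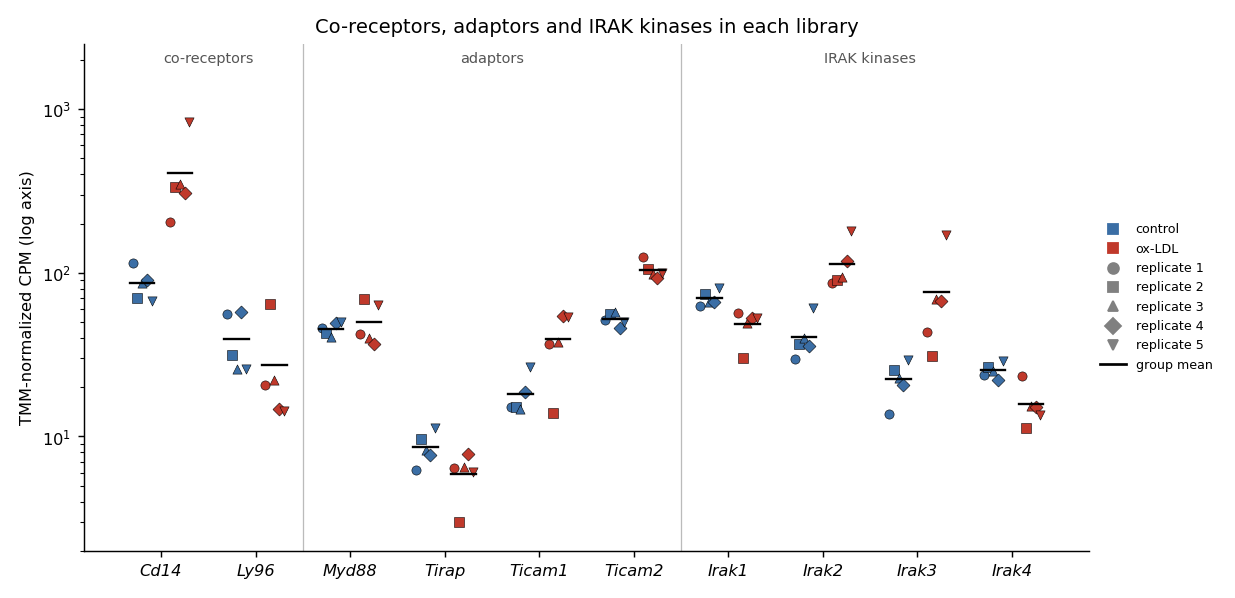
TMM-normalized CPM (log axis) of the 10 genes in each of 5 control (blue) and 5 ox-LDL (red) libraries, with symbols for replicate numbers and a bar at each group mean. Cd14, Ticam2, Irak2 and Irak3 lie higher in all ox-LDL libraries than in any control, and Irak1 lies lower in all of them. Of all genes tested, 11.6% were separate upward and 9.11% downward. In FPKM, Cd14 alone of the 10 genes was separate.

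Cd14, on chromosome 18, showed the largest rise of the set. Its level, in CPM after TMM normalization, was 114.9, 70.5, 87.0, 90.9 and 67.0 in control replicates 1 to 5 and 204.2, 336.2, 350.6, 307.5 and 829.1 in ox-LDL replicates 1 to 5. The groups did not overlap, which held upward for 11.6% of all genes, and ox-LDL replicate 5 was far above the rest. Group means were 86.1 ± 19.1 and 405.5 ± 244 CPM (SD, n = 5 each). On the log2 scale the rise was 2.24 (standard error 0.36, edgeR adjusted p = 8.46e-04), and without ox-LDL replicate 5 the value was 1.80. Cd14 passed the threshold under all 25 alternative settings tried, with log2 fold changes from 1.61 to 2.41. It was also the only one of the 10 genes whose groups were separate in FPKM, the length-scaled values of the authors.

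Ly96, which encodes MD-2, did not follow Cd14. Control replicates 1 to 5 had 55.8, 31.3, 25.8, 57.8 and 25.8 CPM and ox-LDL replicates 1 to 5 had 20.7, 64.8, 22.1, 14.7 and 14.2 CPM. The highest value of all was that of ox-LDL replicate 2, and the other ox-LDL libraries lay below every control. Its fitted log2 fold change was -0.53 (95% interval -1.47 to 0.42, edgeR adjusted p = 0.401). Ly96 is the shortest row of the set (471 bases), and its 3 highest libraries were those in which short genes ran high. Leaving out ox-LDL replicate 2 gave -1.18 (edgeR adjusted p = 0.00789), beside 1502 of 12973 genes called lower in that fit. As that library makes the overlap, the fit without it adds no further evidence. Leaving out 1 library in turn gave -1.18 to -0.34 (edgeR adjusted p 0.00789 to 0.648). With the trend on gene length removed from each library, the log2 fold change of Ly96 was -0.58 (adjusted p = 0.0212).

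Tlr4 itself, the receptor that both co-receptors serve, was at 81.7 to 94.3 CPM in control and at 83.8, 34.8, 47.1, 33.8 and 21.8 CPM in ox-LDL replicates 1 to 5. All but ox-LDL replicate 1 were below the controls, and the log2 fold change of -0.96 (standard error 0.30) did not pass, with an edgeR adjusted p of 0.0346. Per length, Cd14 and Ly96 exchanged places. Mean FPKM was 59.3 ± 8.07 for Cd14 and 84.8 ± 25.5 for Ly96 in control libraries, where Ly96 was the higher in 4 of 5, and 241 ± 127 against 48.0 ± 20.9 in ox-LDL libraries (SD, n = 5 each), where Cd14 was above Ly96 in 5 of 5. Tlr4 was at 11.9 ± 1.08 and 5.84 ± 4.28 FPKM.

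Among the adaptors, Ticam2 passed the threshold. It encodes TRAM, the bridge to TRIF, and its values of 51.4, 56.1, 58.0, 46.0 and 50.04 CPM in control replicates 1 to 5 were followed by 125.7, 104.8, 98.6, 92.4 and 99.7 CPM in ox-LDL replicates 1 to 5. This was the tightest change of the set, with a spread within groups of at most 12.2% of the mean. The difference was 1.00 on the log2 scale (standard error 0.16, edgeR adjusted p = 7.47e-04). The adjusted p was 0.0363 with library size alone and 0.0333 to 0.0704 with limma on FPKM, where ox-LDL replicate 2 (19.8 FPKM) lay within the control range of 14.45 to 21.8. Ticam2 shares 838 exon bases with its neighbor Tmed7 on the same strand of chromosome 18, whose log2 fold change was 0.14 (adjusted p = 0.650).

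Ticam1, which encodes TRIF, reached 36.7, 37.9, 54.1 and 53.9 CPM in ox-LDL replicates 1, 3, 4 and 5 against 15.1, 15.2, 14.8, 18.8 and 26.6 CPM in control replicates 1 to 5, whereas ox-LDL replicate 2 had 13.9 CPM, the lowest value of all. Its log2 fold change was 1.12 (standard error 0.33), which missed the threshold with an edgeR adjusted p of 0.0253. Without ox-LDL replicate 2 it passed, at 1.29 (adjusted p = 6.71e-04). The counts of Ticam1 were fractional in all 10 libraries, and how the fractions arose is not given in the sources used here.

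Myd88, the central adaptor of the pathway, gave no detectable difference. Its 10 values ran from 36.7 CPM in ox-LDL replicate 4 to 68.8 CPM in ox-LDL replicate 2, and the controls, at 40.4 to 49.9 CPM, lay inside that range. The log2 fold change of 0.14 had a 95% interval of -0.31 to 0.58 (edgeR adjusted p = 0.668), and its sign changed with the scaling, from -0.11 with library size alone to 0.14 with TMM. Relative to the median of all genes it lay between -0.01 and 0.12 under TMM, upper-quartile, library size alone and the removal of the length trend. Myd88 shares 67 exon bases with Acaa1a on the opposite strand (log2 fold change 0.18, adjusted p = 0.471), and the strand setting of the counting is not given in the sources used here.

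Tirap, the partner of MyD88 at the cell surface, was the least abundant of the 10 genes, at 2.10 ± 0.67 FPKM in control and 1.34 ± 0.64 FPKM in ox-LDL libraries (SD, n = 5 each). Its CPM were 6.25 to 11.2 in control and 3.00 to 7.80 in ox-LDL libraries and overlapped. The log2 fold change was -0.53 (95% interval -1.09 to 0.04, edgeR adjusted p = 0.155). With the length trend removed it was -0.76 (adjusted p = 0.00391), beside 1465 of the 12654 genes called lower in that fit. Tirap is the longest row of the set at 4498 bases.

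**Figure D2:**
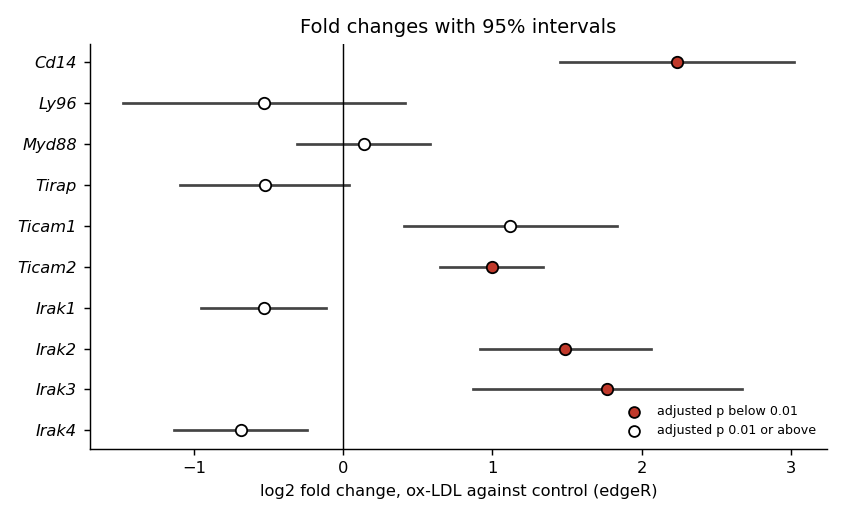
Fitted log2 fold changes of ox-LDL against control libraries (edgeR) for the 10 genes, with 95% intervals; filled points passed an adjusted p of 0.01. The intervals of Cd14, Ticam2, Irak2 and Irak3 lie above 0.65, whereas those of Ly96, Myd88 and Tirap contain 0.

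The IRAK genes separated by sign into pairs. Irak2 and Irak3, which carry the codon beginning with A, were higher in all ox-LDL libraries after TMM normalization. In FPKM they overlapped with the controls through ox-LDL replicate 2, whose TMM factor of 0.593 was the lowest. This library had 17.85 FPKM for Irak2 and 6.46 for Irak3, against control maxima of 22.75 and 11.98. Irak1 and Irak4, which carry the codon beginning with G, had negative log2 fold changes that did not pass the threshold. The match of codon and sign is a description and was not tested.

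Irak2 encodes the kinase-related protein that prolongs signaling downstream of MyD88. It was at 29.8, 36.5, 40.05, 35.5 and 61.0 CPM in control replicates 1 to 5 and at 87.1, 90.3, 94.6, 117.8 and 179.2 CPM in ox-LDL replicates 1 to 5. Replicate 5 was the highest in each group, and the groups did not overlap, which held for 11.6% of all genes in the upward direction. The rise on the log2 scale was 1.49 (standard error 0.26, edgeR adjusted p = 0.00152). It ranged from 1.23 to 1.68 over the settings, with an adjusted p of 0.0121 under library size alone and 0.0287 under limma on log2(FPKM + 1) without a filter.

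Irak3, the inhibitory member, was at 13.8, 25.5, 22.8, 20.7 and 29.2 CPM in control replicates 1 to 5. In ox-LDL replicates 1 to 5 it was at 43.6, 31.2, 68.7, 67.5 and 171.4 CPM. The lowest ox-LDL library, replicate 2, was only just above the highest control, and replicate 5 was again far above the rest. The log2 fold change was 1.77 (standard error 0.41, edgeR adjusted p = 0.00781). This call was close to the threshold. The adjusted p was 0.0127 to 0.0238 when any control or ox-LDL replicate 3 or 4 was left out, 0.00164 without ox-LDL replicate 2 and 0.00808 without ox-LDL replicate 5, where the log2 fold change was 1.22. The direction was the same under all 25 settings. On the opposite strand Irak3 shares 192 exon bases with Tmbim4, whose log2 fold change was 1.64 (adjusted p = 0.0152), and reads of the pair cannot be told apart there without knowledge of the strand.

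Irak1 encodes the kinase that IRAK4 activates, and its row also spans the microRNA gene Mir718. Its values were 62.6, 74.4, 66.3, 66.5 and 81.1 CPM in control replicates 1 to 5 and 57.1, 30.1, 49.6, 53.0 and 52.7 CPM in ox-LDL replicates 1 to 5. All ox-LDL libraries were below all controls, a separation found downward in 9.11% of genes, and ox-LDL replicate 2 was the lowest. The log2 fold change of -0.53 (95% interval -0.95 to -0.11) had an edgeR adjusted p of 0.0590.

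Irak4, the kinase that starts the relay, was at 23.7, 26.7, 25.3, 22.0 and 28.9 CPM in control replicates 1 to 5 and at 23.4, 11.2, 15.3, 15.1 and 13.5 CPM in ox-LDL replicates 1 to 5. The groups overlapped through ox-LDL replicate 1. The log2 fold change was -0.69 (95% interval -1.13 to -0.24, edgeR adjusted p = 0.0263). Leaving out 1 library in turn gave -0.88 to -0.63 (edgeR adjusted p 0.00369 to 0.0617), with the smallest p without ox-LDL replicate 1. As that library makes the overlap, the fit without it adds no further evidence. With the trend on gene length removed, Irak1 and Irak4 both passed, at -0.68 (adjusted p = 0.00110) and -0.79 (adjusted p = 0.00268). That fit called 1465 of the 12654 genes lower, against 677 in the main fit. Irak4 shares 395 exon bases with Twf1 on the opposite strand, whose log2 fold change was -0.01 (adjusted p = 0.974).

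Ratios of gene pairs within a library do not depend on how libraries are scaled, and 6 of them were compared between the groups by two-sided exact permutation tests over the 252 arrangements of the libraries. The ratio of Irak3 to Irak1 rose by 2.12 on the log2 scale (standard error 0.37), a 4.35-fold shift, with p = 0.00794, the smallest that 5 libraries against 5 allow (exact permutation test, adjusted p = 0.0119 over the 6 ratios). Its log2 values were -2.18 to -1.47 in control and -0.39 to 1.70 in ox-LDL libraries. The ratio of Irak3 to Irak4 rose by 2.29 (standard error 0.48) and that of Irak2 to Irak1 by 2.04 (standard error 0.24), each again without overlap and with the same exact permutation p and adjusted p. The separations of Irak3/Irak1 and Irak2/Irak1 follow from the CPM above, where Irak2 and Irak3 were separate upward and Irak1 downward. Their tests thus add no further evidence. The test of Irak3/Irak4 reuses Irak3, so it is not independent of the CPM above either.

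Between the rising genes no shift was detectable. The log2 ratio of Irak3 to Irak2 was -0.86 ± 0.24 in control and -0.77 ± 0.55 in ox-LDL libraries (SD, n = 5 each; exact permutation test, p = 0.754), so the inhibitory member and the activating Irak2 differed by 0.08 in their change, with a standard error of 0.27. The ratio of Cd14 to Ly96 rose by 2.78 (standard error 0.61), from a log2 range of 0.65 to 1.75 to one of 2.37 to 5.86 (exact permutation test, p = 0.00794, adjusted p = 0.0119). Cd14 was already separate in CPM, so this test is not independent of that result. The ratio of Myd88 to Ticam1 had a difference of -0.92 (standard error 0.50, exact permutation test, p = 0.119, adjusted p = 0.143). Without ox-LDL replicate 2, the library that makes these groups overlap, the difference was -1.38 (exact permutation test, adjusted p = 0.0190). Its unadjusted p of 0.0159 is the smallest that 4 libraries against 5 allow, so this fit adds no further evidence.

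**Figure D3:**
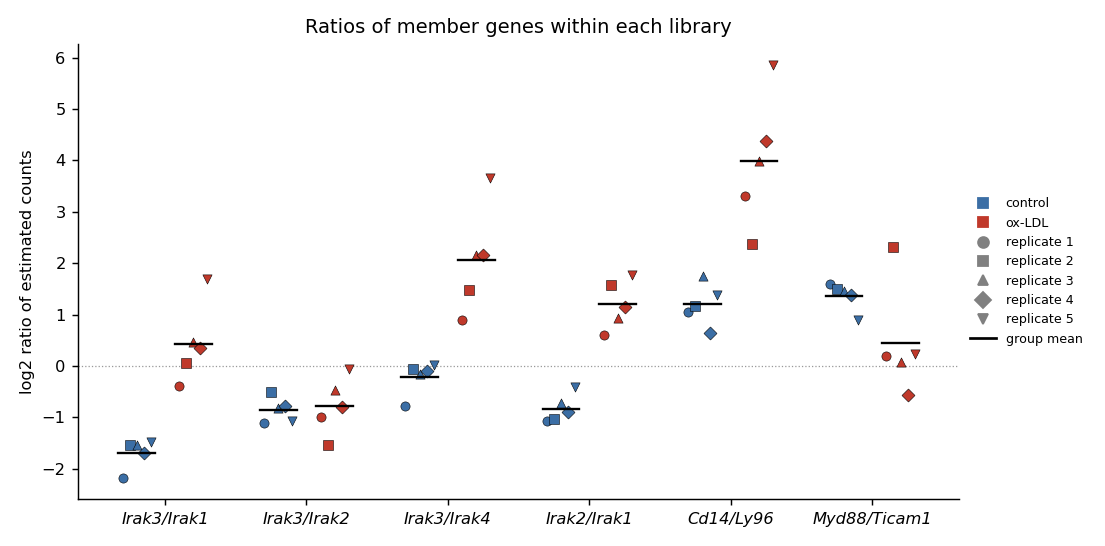
The log2 ratio of estimated counts of 2 genes within each library, for 6 pairs, with control libraries in blue, ox-LDL libraries in red and a bar at each group mean. The groups are separate for Irak3/Irak1, Irak3/Irak4, Irak2/Irak1 and Cd14/Ly96, and overlap for Irak3/Irak2 and Myd88/Ticam1.

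Per length, the order of the IRAK genes by mean changed between the groups, although Irak2 stayed above Irak3 and Irak1 above Irak4. In control libraries mean FPKM was 21.3 ± 3.81 for Irak1, 14.3 ± 5.28 for Irak2, 11.7 ± 2.02 for Irak4 and 8.80 ± 2.93 for Irak3 (SD, n = 5). In ox-LDL libraries it was 34.9 ± 11.4 for Irak2, 25.9 ± 16.2 for Irak3, 13.4 ± 5.27 for Irak1 and 6.72 ± 3.45 for Irak4. Ranges of neighbors in these orders overlapped, so that the position of a single gene is not fixed beyond the spread between libraries, although Irak4 was above Irak3 in 5 of 5 controls and Irak1 above Irak4 in 5 of 5 ox-LDL libraries. Over all 10 genes, Ly96 and Cd14 were the most abundant in control libraries and Tirap the least, and Tirap was separate from its neighbor in each group.

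**Figure D4:**
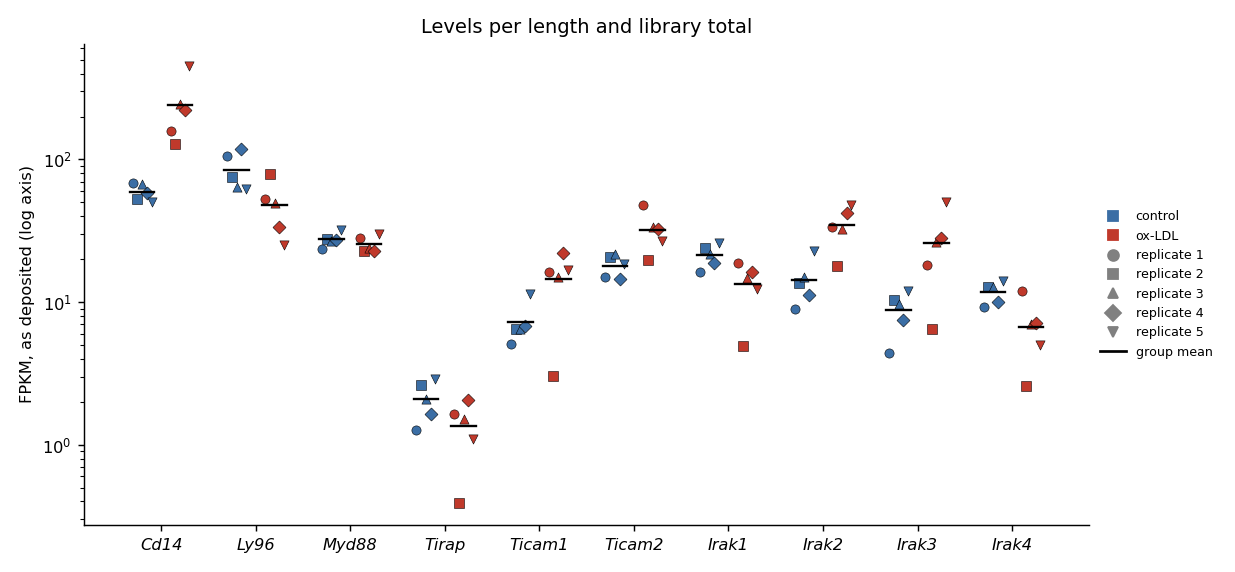
FPKM as deposited (log axis) of the 10 genes in each library, with control in blue, ox-LDL in red, symbols for replicate numbers and bars at group means. Cd14 is the only gene whose groups are fully separate on this scale, and ox-LDL replicate 2 (square) is the lowest ox-LDL library for every gene but Ly96.

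Promoter windows from 250 bases before to 50 bases after the start site, from RefSeq on GRCm38.p6, were found for 7 of the 10 genes, with 2 start sites each for Irak1, Irak3 and Tirap. They were searched on both strands for a loose NF-kB pattern (GGG, any 5 bases, CC; found in 50.8% of 32851 such windows), a loose interferon response pattern (GAAA, any 2 bases, GAAA; 3.44%), TGANTCA (AP-1, 7.81%) and GGGCGG (GC box, 35.7%). One window is shown for each of Irak2 and Irak3, which rose, Irak1 and Irak4, which did not, and Myd88, the only one of the 7 genes with a match to the interferon response pattern. Capitals mark matches to any of the patterns, which can overlap one another.
Irak2 (chr6:113638217-113638516, plus strand): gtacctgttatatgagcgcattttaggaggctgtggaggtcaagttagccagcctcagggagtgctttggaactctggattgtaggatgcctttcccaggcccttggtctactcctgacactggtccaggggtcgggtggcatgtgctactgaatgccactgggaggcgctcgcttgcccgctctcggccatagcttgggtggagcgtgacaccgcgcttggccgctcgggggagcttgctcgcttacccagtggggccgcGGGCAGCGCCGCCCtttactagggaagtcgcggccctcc
Irak3 (chr10:120201548-120201847, minus strand): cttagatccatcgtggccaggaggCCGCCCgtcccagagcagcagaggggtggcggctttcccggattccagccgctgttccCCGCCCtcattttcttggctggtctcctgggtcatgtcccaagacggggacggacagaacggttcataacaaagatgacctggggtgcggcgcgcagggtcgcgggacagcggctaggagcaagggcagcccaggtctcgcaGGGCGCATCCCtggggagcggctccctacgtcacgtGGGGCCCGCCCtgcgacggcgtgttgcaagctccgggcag
Irak1 (chrX:74023872-74024171, minus strand): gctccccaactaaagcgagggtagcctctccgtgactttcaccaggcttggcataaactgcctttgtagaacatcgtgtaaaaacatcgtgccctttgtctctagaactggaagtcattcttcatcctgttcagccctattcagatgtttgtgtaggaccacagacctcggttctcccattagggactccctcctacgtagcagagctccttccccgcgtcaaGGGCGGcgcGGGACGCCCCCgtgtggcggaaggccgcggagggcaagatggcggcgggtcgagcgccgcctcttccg
Irak4 (chr15:94543410-94543709, plus strand): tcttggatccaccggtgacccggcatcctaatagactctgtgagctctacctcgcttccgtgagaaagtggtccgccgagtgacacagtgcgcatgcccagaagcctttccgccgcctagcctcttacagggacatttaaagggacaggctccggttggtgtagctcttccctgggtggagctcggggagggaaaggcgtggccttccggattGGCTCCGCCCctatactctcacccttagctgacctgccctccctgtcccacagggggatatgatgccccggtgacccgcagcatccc
Myd88 (chr9:119339969-119340268, minus strand): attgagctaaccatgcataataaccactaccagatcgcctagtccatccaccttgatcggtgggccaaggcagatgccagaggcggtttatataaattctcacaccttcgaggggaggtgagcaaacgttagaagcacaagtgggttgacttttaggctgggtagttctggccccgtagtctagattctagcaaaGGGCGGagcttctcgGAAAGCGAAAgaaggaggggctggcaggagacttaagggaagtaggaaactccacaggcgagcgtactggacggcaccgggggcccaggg
The windows of Irak2, Irak1 and Irak4 all held matches to the NF-kB pattern and the GC box. These patterns thus did not separate Irak2, which rose, from Irak1 and Irak4, which did not. Cd14 and Ticam2, which also rose, were not searched. The Irak3 window shown held 4 matches to the NF-kB pattern, in overlapping pairs, and 3 to the GC box, whereas its upstream start site, 533 bases away, held none. No window of the 7 genes held TGANTCA.

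The wider pathway was described with 5 lists written by hand, with earlier results of these data known. Their counts beside those of all genes are therefore a description, not a test. Among 9 genes of the receptor and of LPS transfer, 1 was higher and 0 were lower at an adjusted p below 0.01 (edgeR), with a median log2 fold change of -0.53. Of all genes tested, 9.4% were higher and 5.35% lower at that level. At an unadjusted p below 0.05, which 23% of all genes passed upward and 15.8% downward, the counts were 1 and 2. The gene that rose was Tlr2, the receptor for bacterial lipoproteins, from 13.4 ± 2.08 to 142.6 ± 56.9 CPM (SD, n = 5 each; log2 fold change 3.41, edgeR adjusted p = 2.23e-05). Of 6 receptor chaperones and trafficking genes, 0 passed in either direction (edgeR), 1 was lower at an unadjusted p below 0.05, and the median was 0.00.

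Downstream of MyD88, 3 of 18 genes were higher and 1 lower at an adjusted edgeR p below 0.01, beside 9.4% and 5.35% of all genes. At an unadjusted edgeR p below 0.05 the counts were 9 and 1, beside 23% and 15.8%. The median log2 fold change was 0.39. Called higher were Ikbkg, the regulatory subunit of the IkB kinase (1.44), Rnf31, the catalytic subunit of the linear ubiquitin ligase (1.38), and Traf6, the ubiquitin ligase next to the IRAKs (1.14). Peli2, a Pellino ligase that binds IRAKs, fell from 16.4 ± 1.19 to 8.85 ± 1.35 CPM (SD, n = 5 each; log2 fold change -0.89, edgeR adjusted p = 0.00201). Downstream of TRIF, 2 of 10 genes were higher and 0 lower, beside the same 9.4% and 5.35%, with a median of 0.24. Without adjustment the counts were 5 and 0 (edgeR p below 0.05), beside 23% and 15.8%. The genes called higher at the adjusted threshold were Traf3 (1.54), an adaptor ligase, and Tbk1 (1.01), the kinase that activates IRF3.

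Among negative regulators of the pathway, 7 of 15 genes tested were higher and 1 was lower, against 9.4% and 5.35% of all genes. At an unadjusted edgeR p below 0.05 the counts were 9 and 1, beside 23% and 15.8% of all genes, and the median log2 fold change was 0.99. The largest rises were those of Socs1 (5.12), a suppressor of cytokine signaling, Nfkbia (3.20), which encodes IkB-alpha, and Tnfaip3 (2.28), which encodes the ubiquitin-editing enzyme A20. Otulin, a deubiquitinase for linear chains, fell by 0.82 on the log2 scale (edgeR adjusted p = 0.00987). Sigirr, Il1rl1 and Sarm1 had too few counts to be tested. As in Irak3 and Cd14, ox-LDL replicate 5 held the highest value of Socs1, Nfkbia and Tnfaip3.

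**Figure D5:**
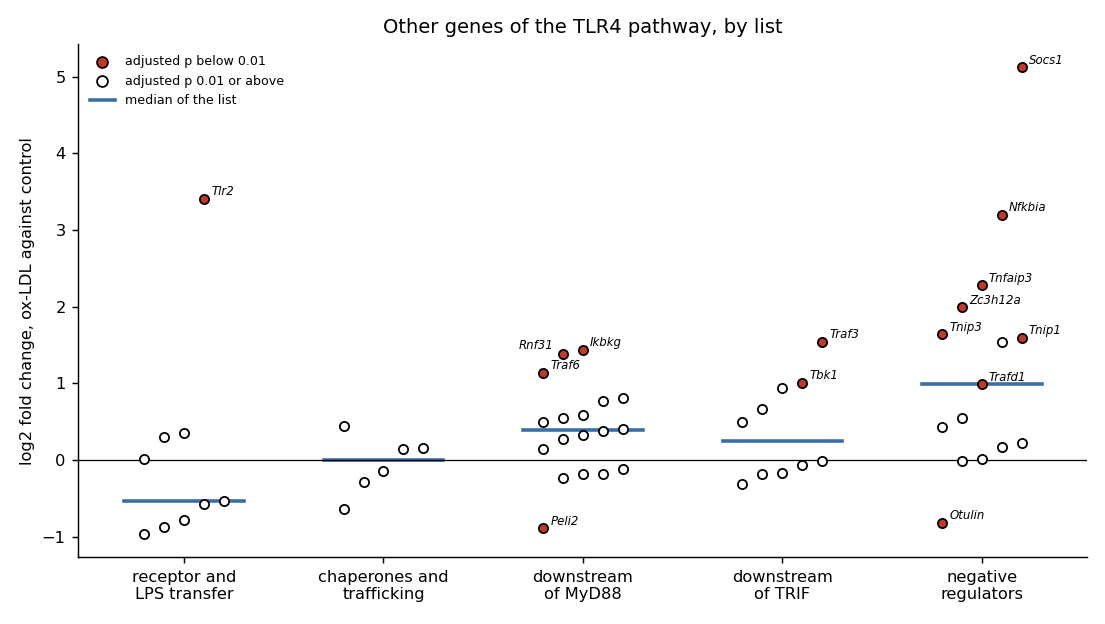
Log2 fold changes (edgeR, ox-LDL against control) of the other pathway genes in 5 lists; each point is a gene, filled where the adjusted p was below 0.01, and the blue line is the median of the list. The list of negative regulators has the highest median, 0.99, and 7 filled points above 0. The lists were chosen with earlier results of these data known.

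The genes closest to Irak3 in their levels over the 10 libraries were Ndel1 (Pearson r of log2 CPM 0.989), Tox4 (0.988), Gmeb1 (0.988), Pvr (0.986) and N4bp2 (0.985). These correlations include the difference between the groups and the effect of ox-LDL replicate 5, and are given as a description of 10 libraries. The log2 fold changes of these genes ranged from 0.72 for Ndel1 to 2.03 for Pvr, beside 1.77 for Irak3.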

How the data were processed

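Total RNA of 10 macrophage samples was sequenced. The authors aligned the reads to mm9 with HISAT2 2.0.5, sorted the alignments (SAMtools 1.4) and assembled transcripts (StringTie 1.3.3.13), versions as in the submitters' processing notes. They deposited one table of estimated counts per gene, not normalized, of which 13.6% of values are not whole, and per-library values whose unit is not named; counts divided by these values and by library totals give a constant length per row, so the deposited values were treated as FPKM. The counting step, its strand setting and its annotation are not given in the sources used here.

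Estimated counts were rounded, 9788 circular RNA rows were left out, and genes were filtered with filterByExpr, normalized by TMM and tested with edgeR 4.0.16 (quasi-likelihood, robust, R 4.3.3), adjusted over 12654 genes and called at an adjusted p below 0.01. The standard error is the size of the log2 fold change over the square root of F. Ratios used log2 counts plus 0.5 and exact permutation (SciPy 1.17.1). Symbols came from RefSeq (22818 of 23382 NCBI rows matched), and mm9 positions from GENCODE on NCBIM37. No 2 libraries of a group were alike within sampling noise (chi-square per gene at least 10.5). On simulated data, edgeR recovered 197 of 200 changed genes of 12559 with 1 false call. The planted log2 changes were at least 2 in size, in genes above a count floor, with no library standing apart. Smaller changes, such as those of most of the 10 genes, were not simulated. Alternatives were DESeq2 1.42.0, limma 3.58.1, other scalings, filters, thresholds and rows, a replicate block, left-out libraries and removal of length trends.

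The members and lists were chosen with earlier results of these data known. Named were all members, Tlr4, up to 3 genes per list and direction with the largest changes among those called, and the 5 genes most correlated with Irak3. Some marker genes are not reported here and were left out of the marker sums.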

Additional observations from a re-analysis of the deposited data

Results flagged for a closer look

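Of 32 groups of 5 libraries examined (10 genes and 6 ratios in each condition), 6 held a library whose distance to its nearest neighbor exceeded 0.71 of the range of the group, where chance flags about 1 group in 20 (1.6 of 32). Ox-LDL replicate 5 stood above its group for Cd14, at 829.1 CPM against 350.6 in the next library, and for Irak3, at 171.4 CPM against 68.7. Ox-LDL replicate 2 stood above its group for Ly96, at 64.8 CPM against 22.1, and below it for Irak1, at 30.1 CPM against 49.6. It also held the highest log2 ratio of Myd88 to Ticam1, 2.31 against 0.24 in the next ox-LDL library. Control replicate 1 had the lowest log2 ratio of Irak3 to Irak4, -0.78 against -0.15 in the next control. The length trend of ox-LDL replicate 2 and control replicate 1 moved with these values, and its part in them was not tested beyond the fit in which it was removed.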

How the results depend on the processing

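Cd14 kept its call under all 25 settings, and apart from Myd88 each of the 10 genes kept its direction under all of them. The log2 fold change of Myd88 reversed to -0.025 with upper-quartile scaling, -0.11 with library size alone, -0.10 with limma on log2(FPKM + 1) with or without a filter, -0.11 with limma on log2(FPKM + 0.1), -0.043 without ox-LDL replicate 2 and -0.23 without control 5, ox-LDL 2 and ox-LDL 5. Leaving out 1 library in turn gave -0.043 to 0.23 for it. The cause was not tested. Irak3 lost its call in 13 settings, with adjusted p from 2.62e-04 to 0.139 over all, Ticam2 in 4 and Irak2 in 2.

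Genes called lower numbered 1244 with DESeq2 (1 of the 10) and 1465 with length trends removed (3 of the 10: Tirap, Irak1 and Irak4). Genes called higher numbered 704 with library size alone (1 of the 10), 570 with limma on log2(FPKM + 1) (2 of the 10), 553 with log2(FPKM + 0.1) (2 of the 10) and 469 without a filter (1 of the 10). An adjusted p below 0.05 gave 2045 higher and 1320 lower (1 of the 10 lower), the added fold cutoff 605 and 244 (1 of the 10 higher), and the fit without 3 libraries 1946 and 1653. Leaving out 1 library in turn gave 826 to 1755 higher and 436 to 1502 lower, with 3 to 5 of the 10 higher and 0 to 1 lower, the upper ends without ox-LDL replicate 2. Against TMM, upper-quartile scaling, library size alone and length removal moved the median gene by -0.14, -0.16 and -0.11.

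With 1 library left out in turn, the ratio of Irak3 to Irak2 ranged from -0.093 without ox-LDL replicate 5, a reversal, to 0.27 without ox-LDL replicate 2, and that of Myd88 to Ticam1 from -1.38 to -0.67. Without control 5, ox-LDL 2 and ox-LDL 5, the differences of 1.88 (Irak3/Irak1), 2.01 (Irak3/Irak4), 1.83 (Irak2/Irak1), 2.74 (Cd14/Ly96) and -1.58 (Myd88/Ticam1) had an adjusted exact permutation p of 0.0686, where 4 libraries against 3 allow no p under 0.0571.

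Same-numbered libraries deviated from their group means with correlations of 0.02, -0.27, 0.44, -0.28 and 0.41, so the numbers were not taken to pair samples. A replicate block gave 885 genes higher and 549 lower, with 4 and 0 of the 10. Under the block the ratio differences were 2.12 (Irak3/Irak1), 0.08 (Irak3/Irak2), 2.29 (Irak3/Irak4), 2.04 (Irak2/Irak1), 2.78 (Cd14/Ly96) and -0.92 (Myd88/Ticam1), where 5 pairs allow no exact p under 0.0625. Of the 10 libraries, control 5 and ox-LDL 5 alone correlated best with their own number.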
